A study of Homo sapiens with 45 samples.

Results

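The forkhead genes described here are 9 developmental transcription factor genes: FOXC1, FOXF2 and FOXQ1, which form a cluster on chromosome 6, FOXC2, FOXF1 and FOXL1, which form a cluster on chromosome 16, and FOXA2, FOXD3 and FOXB1, which stand singly. A pair of DNA fragments on the same chromosome was taken for a gene when either fragment reached within 1000 bp of an annotated end of that gene in RefSeq (GRCh38.p14). This gave 161 of the 152688 pairs listed within chromosomes, and each pair belonged to 1 gene only. FOXA2 had 60 pairs, FOXC2 49, FOXL1 17, FOXF2 12, FOXF1 11, FOXQ1 7 and FOXC1 5, while FOXD3 and FOXB1 had 0, so 7 of the 9 genes could be described by this rule. The gene lay at the captured fragment in 157 pairs and at the other fragment in 4. Captured fragments had a median length of 625 bp and other fragments that were not captured 5266 bp. A partner that was not captured is thus placed more coarsely.

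The pairs come from poised enhancer capture Hi-C, in which crosslinked chromatin is cut with DpnII, ligated, and enriched for fragments at poised enhancers. The cells were HNES1, an embryo-derived human pluripotent stem cell line, grown naive on mouse feeder cells, passaged without feeders, and harvested after 5 days of transition toward the primed state in medium with XAV939. The compounds were UNC6852 at 2.5 µM, which degrades EED, UNC1999 at 1 µM, which inhibits the catalytic subunits EZH1 and EZH2, and an equal volume of the solvent DMSO as control. Each was added 24 h before day 0 and renewed daily. All groups were 1 cell line, and each had 15 libraries from 3 biological replicates in 2 batches, pooled by the authors into 1 column of scores. With 1 column per condition there is no spread between replicates and no test, the read depth behind the scores is unknown, and the compounds are not ranked because their doses differ. No expression or histone data were used here, so neither the state of the cells nor the action of the compounds could be checked. A score says how far the reads joining 2 fragments exceed a background model. Pairs with a score of 5 or more count as called in that profile, and each listed pair reached 5 in at least 1 of the 3 profiles.

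EED and the EZH enzymes belong to Polycomb repressive complex 2, which methylates histone H3 at lysine 27 over CpG-rich promoters of silent developmental genes. Such promoters, and the poised enhancers that contact them, can gather into long-range contacts in pluripotent cells. Forkhead genes encode factors with a winged-helix DNA-binding domain, and several lie in small clusters that arose by duplication, so that FOXF2 and FOXC1 on chromosome 6 have FOXF1 and FOXC2 as their paralogues on chromosome 16. FOXA2 opens chromatin in endoderm and floor plate. FOXC1 and FOXC2 act in mesoderm, the eye and lymphatic vessels. FOXF1 and FOXF2 act in mesenchyme of the lung, gut and palate, and FOXL1 in gut mesenchyme in the mouse.

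Promoter sequences are given for the chromosome 6 cluster because they show how differently the captured fragments sit at its 3 genes. Each runs from 250 bases before to 50 bases after the annotated start, on the plus strand of GRCh38.p14 (RefSeq), and CG dinucleotides are in capitals. Of the 9 genes, 5 had a sequence in the promoter table used here: FOXQ1, FOXF2, FOXC1, FOXD3 and FOXB1.
FOXQ1: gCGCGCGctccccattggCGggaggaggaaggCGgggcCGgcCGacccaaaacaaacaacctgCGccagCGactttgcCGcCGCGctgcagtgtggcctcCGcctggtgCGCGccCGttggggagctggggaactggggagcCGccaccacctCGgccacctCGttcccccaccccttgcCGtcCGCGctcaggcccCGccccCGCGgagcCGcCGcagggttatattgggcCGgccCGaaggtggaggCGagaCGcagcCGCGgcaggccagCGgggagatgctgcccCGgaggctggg
FOXF2: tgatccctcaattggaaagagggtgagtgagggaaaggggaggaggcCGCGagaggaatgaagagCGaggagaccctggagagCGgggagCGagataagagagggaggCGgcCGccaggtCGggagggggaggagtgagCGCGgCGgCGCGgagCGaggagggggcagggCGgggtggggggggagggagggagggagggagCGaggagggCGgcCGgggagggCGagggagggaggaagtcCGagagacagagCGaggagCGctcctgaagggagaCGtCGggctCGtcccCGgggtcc
FOXC1: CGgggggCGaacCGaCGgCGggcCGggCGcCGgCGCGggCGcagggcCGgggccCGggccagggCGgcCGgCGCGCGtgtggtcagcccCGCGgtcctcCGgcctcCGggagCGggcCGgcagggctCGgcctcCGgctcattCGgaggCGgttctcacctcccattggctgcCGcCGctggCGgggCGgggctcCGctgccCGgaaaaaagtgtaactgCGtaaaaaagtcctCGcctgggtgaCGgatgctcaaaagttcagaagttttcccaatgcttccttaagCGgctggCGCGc
The FOXQ1 window (chr6:1311848-1312147) held 35 CG, the FOXF2 window (chr6:1389326-1389625) 26, and the FOXC1 window (chr6:1609665-1609964) 40. The median over all 35116 promoters in the table was 14, with quartiles of 4 and 28, and 96.0% of them held at least 1 CG. GATC, the DpnII site, which reads the same on both strands, occurred 0 times in the FOXQ1 and FOXC1 windows and 1 time in the FOXF2 window, and 41.7% of all promoter windows held it. All 300 bases of the FOXQ1 window lay inside a captured fragment. The nearest captured fragment ended 491 bp from the FOXF2 window and 693 bp from the FOXC1 window. Of the 7 FOXQ1 pairs, 3 came from that fragment, whereas no pair of FOXF2 or FOXC1 came from a fragment that overlaps the promoter window.

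Neighbouring genes of both clusters had their partners on opposite sides. In all counts of side, partners are counted per pair, so a fragment met from several captured fragments counts each time. The pairs of FOXC2 had 37 distinct partner fragments, those of FOXF1 10 and those of FOXA2 35. A FOXF1 contact that was listed from both captured ends also counts each time. On chromosome 16, all 49 partners of FOXC2 and all 17 of FOXL1 lay at higher coordinates than the gene, whereas 10 of the 11 partners of FOXF1 lay at lower coordinates. FOXF1 and FOXC2 are 51.4 kb apart, and FOXC2 and FOXL1 8.82 kb apart. On chromosome 6, 11 of 12 partners of FOXF2 and 5 of 7 of FOXQ1 lay at lower coordinates, and 5 of 5 of FOXC1 at higher ones. FOXQ1 and FOXF2 are 74.8 kb apart, and FOXF2 and FOXC1 214 kb. The FOXF gene thus had lower-coordinate partners and the FOXC gene higher-coordinate partners in each cluster. FOXA2 had 52 of its 60 partners at lower coordinates.

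Taken singly, all 3 profiles had the majority of calls on the same side for FOXF2, FOXF1 and FOXA2, whereas FOXQ1 had 1 call on each side in UNC1999. For FOXC1, FOXC2 and FOXL1 this split adds nothing, because all their listed pairs lay on 1 side whatever the profile. For FOXF2, FOXF1 and FOXA2 the majority was fixed as well, because only 1, 1 and 8 of their listed pairs lay at higher coordinates. Agreement of the profiles on the side therefore cannot be read from these counts. FOXF1 had 3, 4 and 4 calls at lower coordinates in UNC6852, UNC1999 and DMSO, against 0, 1 and 0 at higher ones. FOXA2 had 20, 28 and 22 calls at lower coordinates in UNC6852, UNC1999 and DMSO, against 4, 4 and 1 at higher ones. Partners mostly on 1 side were common in this capture design. Of all 3265 genes with at least 5 pairs, 41.5% had at least 90% of their partners on 1 side, and of the 7 forkhead genes 5 did.

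Pairs that the gene rule did not use gave the same sides, counted where either fragment, captured or not, reached within 5000 bp of a gene end. Between 1000 and 5000 bp from the gene ends, FOXC1 had 40 of 40 partners at higher coordinates, FOXC2 160 of 160 and FOXL1 68 of 72. The fragment chr16:86572747-86573983, with 13 pairs, lies in the belts of both FOXC2 and FOXL1 and counts for each. In the same belt, FOXF1 had 33 of 34 partners at lower coordinates, FOXF2 8 of 9, FOXQ1 5 of 6 and FOXA2 65 of 73. Neighbouring fragments lie on the same stretch of chromosome and are not replicates of each other.

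The change of side fell within short intervals. Taking every captured fragment of these regions with at least 3 pairs of at most 2 Mb, 5 fragments lay between 72.9 kb and 48.8 kb below the FOXC2 start, around FOXF1, and 44 of their 46 partners were at lower coordinates. The next 15 fragments lay from 11.0 kb below to 13.5 kb above the FOXC2 start, and 294 of their 296 partners were at higher coordinates. The gap between the blocks was 37.8 kb. On chromosome 6, the 16 fragments from FOXQ1 to 47.7 kb above the FOXF2 start had 76 of 78 partners at lower coordinates. The 9 fragments from 185 kb above that start had 74 of 74 at higher coordinates. In the 137 kb between those blocks, a fragment 138 kb above the FOXF2 start had 2 of 3 partners at higher coordinates. These blocks and the measure of side were chosen after the values were seen.

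**Figure D1:**
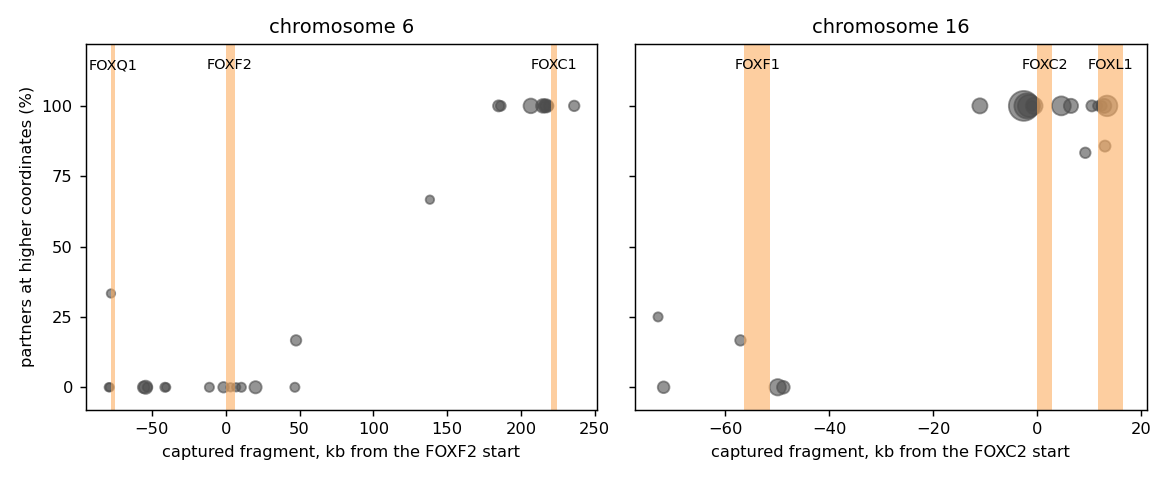
Share of partners at higher coordinates for each captured fragment with at least 3 pairs of at most 2 Mb, against its distance in kb from the FOXF2 start (left, chromosome 6) or the FOXC2 start (right, chromosome 16). Each point is a fragment, larger points have more pairs, and shaded bands are the genes. Fragments around FOXQ1, FOXF2 and FOXF1 sit between 0% and 33.3%, and those around FOXC1, FOXC2 and FOXL1 between 83.3% and 100%, with 1 fragment between FOXF2 and FOXC1 at 66.7%.

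No pair joined any of the 9 genes to another. None was listed between genes of a cluster within 1000 bp or within 5000 bp of the gene ends. Within 20000 bp there was 1 such pair, from the FOXQ1 promoter fragment (chr6:1311145-1312603) to a captured fragment below FOXF2 (chr6:1379275-1380060), 67.8 kb away. It scored 5.48 in UNC6852, 1.34 in UNC1999 and 2.94 in DMSO, so it was called in UNC6852 only. Short pairs were seldom listed, with 0.772% of all pairs within chromosomes under 20 kb and 7.52% at 20 to 100 kb. The gaps between neighbouring genes were 8.82, 51.4, 74.8 and 214 kb. Absence of a pair thus says little about genes less than 100 kb apart.

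FOXC2, a regulator of lymphatic valve formation, had its strongest contacts with 1 distant stretch. This stretch, chr16:87046723-87088812, spans 42.1 kb around the ends of LINC02181, a long non-coding RNA gene, and lies 478 to 520.0 kb from the FOXC2 fragments. The fragment chr16:87056933-87062508, at a LINC02181 end, scored 14.3 in UNC6852, 10.1 in UNC1999 and 6.66 in DMSO from the FOXC2 fragment chr16:86570280-86572746. From the FOXC2 fragment chr16:86566123-86566461 it scored 7.88 in UNC6852, 7.28 in UNC1999 and 7.41 in DMSO. From the third FOXC2 fragment, chr16:86565589-86566122, it scored 5.30 in UNC6852, 0.702 in UNC1999 and 0.693 in DMSO. The first fragment saw this partner highest in UNC6852 and lowest in DMSO, whereas from the second all 3 profiles had close scores.

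The neighbouring partners on the LINC02181 stretch were also met from several FOXC2 fragments. From chr16:86570280-86572746, the partner chr16:87062509-87068352 scored 9.50 in UNC6852, 9.51 in UNC1999 and 5.63 in DMSO. The partner chr16:87051777-87056932 scored 5.58 in UNC6852, 9.40 in UNC1999 and 5.66 in DMSO from the same fragment. The partner chr16:87046723-87051776, where the stretch begins, scored 9.28 in UNC6852, 4.04 in UNC1999 and 5.62 in DMSO. The first 2 of these pairs and the first 2 of the preceding paragraph were the 4 FOXC2 pairs called in all 3 profiles. From chr16:86570280-86572746, the partner chr16:87073584-87078654 scored 5.93 in UNC6852, 4.73 in UNC1999 and 2.13 in DMSO, so DMSO was lowest there. At 2 other partners on the stretch, DMSO was highest from chr16:86570280-86572746. The partner chr16:87068353-87073583 scored 4.90 in UNC6852, 1.08 in UNC1999 and 8.74 in DMSO. The partner chr16:87078655-87083763 scored 3.16 in UNC6852, 1.89 in UNC1999 and 9.93 in DMSO. Of the 16 FOXC2 pairs on the stretch, 12 were called in UNC6852, 5 in UNC1999 and 8 in DMSO. Against DMSO, 11 of the 16 were higher and 5 lower in UNC6852, and 10 higher and 6 lower in UNC1999.

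FOXL1, which lies beyond FOXC2, met the same stretch in 4 pairs. The LINC02181 fragment chr16:87056933-87062508 scored 6.17 in UNC6852, 8.85 in UNC1999 and 1.69 in DMSO from FOXL1. Its neighbour chr16:87051777-87056932 scored 0.231 in UNC6852, 4.44 in UNC1999 and 9.19 in DMSO, the largest negative difference of a FOXL1 pair in either treated profile. From 1 FOXL1 fragment, both treated profiles were thus higher than DMSO at the first of these adjoining partners and lower at the second. The FOXL1 partner chr16:87068353-87073583 scored 0 in UNC6852, 7.51 in UNC1999 and 7.08 in DMSO. Outside the stretch, the partner chr16:87007637-87012771 scored 0.447 in UNC6852, 5.64 in UNC1999 and 5.41 in DMSO, and a partner at an end of LOC105371392 (chr16:86760706-86766507) scored 6.80 in UNC6852, 2.47 in UNC1999 and 2.98 in DMSO. On the stretch, the partner chr16:87078655-87083763 scored 5.63 in UNC6852, 0 in UNC1999 and 0 in DMSO.

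Across the whole stretch, FOXC2 and FOXL1 together had 20 pairs from 5 fragments, with 14 calls in UNC6852, 7 in UNC1999 and 10 in DMSO. Over all pairs within chromosomes, 46.1% were called in UNC6852, 42.3% in UNC1999 and 42.4% in DMSO. Scores were higher than DMSO in 13 of the 20 in UNC6852 and in 12 in UNC1999. Other captured fragments met the stretch in 44 pairs, with 29 calls in UNC6852, 27 in UNC1999 and 33 in DMSO. Of these 44, 19 were higher and 25 lower than DMSO in UNC6852, and 27 higher and 17 lower in UNC1999. The stretch was delimited after the values were seen. Fragments shared by several baits did not behave alike over the 3 profiles: the partner at LINC02181 (chr16:87056933-87062508) was higher than DMSO in UNC6852 from 4 of 4 fragments, and its neighbour chr16:87051777-87056932 was lower in UNC6852 from 3 of 3.

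A second stretch of partners lay farther out, at chr16:87270938-87304004, 696 to 786 kb from the forkhead fragments, around the ends of LOC101928682 and of C16orf95. It had 8 pairs, of which 2 were called in UNC6852, 6 in UNC1999 and 2 in DMSO. Over all pairs of 0.5 to 2 Mb, 42.7% were called in UNC6852, 37.9% in UNC1999 and 37.0% in DMSO. The fragment at the C16orf95 end (chr16:87298864-87304004) scored 5.34 in UNC6852, 5.69 in UNC1999 and 0 in DMSO from FOXC2. From FOXL1 it scored 0.280 in UNC6852, 6.13 in UNC1999 and 0 in DMSO. The fragment chr16:87293316-87298863 scored 6.88 in UNC6852, 5.81 in UNC1999 and 0.0885 in DMSO from FOXC2, and 1.43, 5.72 and 1.41 in UNC6852, UNC1999 and DMSO from FOXF1. The last is the only FOXF1 partner at higher coordinates. From FOXL1, the fragment at the LOC101928682 end (chr16:87270938-87276370) scored 0 in UNC6852, 5.75 in UNC1999 and 0 in DMSO. From FOXC2, the same fragment scored 0 in UNC6852, 1.23 in UNC1999 and 5.09 in DMSO, and chr16:87282446-87287844 scored 1.11, 1.18 and 8.64 in UNC6852, UNC1999 and DMSO. Of the 8 pairs, 6 were thus higher in UNC1999 than in DMSO and 2 lower. Other captured fragments met this stretch in 22 pairs, with 15 calls in UNC6852, 16 in UNC1999 and 11 in DMSO. The stretch was delimited after the values were seen.

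Of the 49 FOXC2 pairs, 40 were called in 1 profile only, which is 81.6%, beside 77.5% over all pairs within chromosomes. The largest positive FOXC2 difference from DMSO in UNC6852 was on the LINC02181 stretch, at chr16:87078655-87083763. From 1 fragment this partner scored 7.09 in UNC6852, 4.98 in UNC1999 and 0 in DMSO. From another FOXC2 fragment the same partner scored 3.16 in UNC6852, 1.89 in UNC1999 and 9.93 in DMSO. The largest negative FOXC2 difference in UNC6852 was at chr16:87142842-87148041, with 0.0317 in UNC6852, 1.24 in UNC1999 and 6.36 in DMSO. In UNC1999 the extremes were chr16:87191420-87196520, with 4.43 in UNC6852, 6.13 in UNC1999 and 0 in DMSO, and chr16:86807329-86813311, with 3.64 in UNC6852, 0 in UNC1999 and 5.27 in DMSO.

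**Figure D2:**
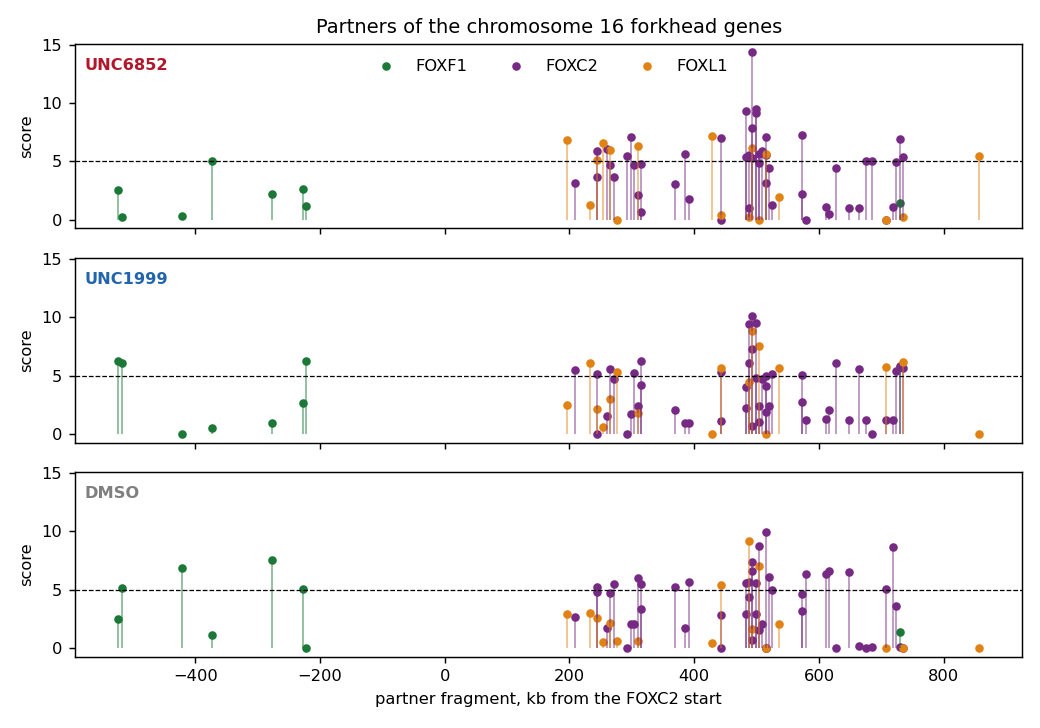
Scores of the FOXF1, FOXC2 and FOXL1 pairs of at most 2 Mb, by distance of the partner from that start in kb, with UNC6852 above, UNC1999 in the middle and DMSO below. Each stem is 1 pair and the dashed line is the call score of 5. FOXF1 stems stand to the left except 1, FOXC2 and FOXL1 stems to the right, and the highest stem is the LINC02181 fragment at 14.3 in UNC6852.

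FOXF1, needed for lung vessel development, had 11 pairs, none called in all 3 profiles, beside 8.33% of all pairs within chromosomes. Its pair with the highest mean score joined chr16:86045927-86053118, at the ends of LOC105371389 and LOC105376778, at a distance of 460.2 kb. It scored 0.285 in UNC6852, 6.09 in UNC1999 and 5.16 in DMSO. The adjoining partner chr16:86040844-86045926 scored 2.56 in UNC6852, 6.23 in UNC1999 and 2.53 in DMSO. A captured fragment at chr16:86289303-86289564 scored 2.22 in UNC6852, 0.976 in UNC1999 and 7.57 in DMSO, and the partner chr16:86337399-86340529 scored 2.69 in UNC6852, 2.66 in UNC1999 and 5.06 in DMSO. The long non-coding RNA genes LINC00917 and LINC01082 each had a partner fragment at an end. That of LINC00917 (chr16:86343981-86344980) scored 1.23 in UNC6852, 6.27 in UNC1999 and 0 in DMSO, and that of LINC01082 (chr16:86190720-86195743) 5.01 in UNC6852, 0.519 in UNC1999 and 1.14 in DMSO. The partner chr16:86143670-86148926 was lowest against DMSO in both treated profiles, with 0.381 in UNC6852, 0 in UNC1999 and 6.90 in DMSO.

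FOXF1 also had pairs of over 10 Mb. A captured fragment at chr16:73062805-73062971, 13446.9 kb away, was listed from both captured ends and scored 6.09 and 5.37 in UNC6852, 0 and 0 in UNC1999, and 0 and 0 in DMSO. A fragment at a WDR59 end (chr16:74982799-74987868) scored 0 in UNC6852, 6.80 in UNC1999 and 0 in DMSO. With the 2 directions counted once, the mean difference of FOXF1 in UNC6852 changed sign, as given below.

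On chromosome 6, the contacts of FOXF2 and FOXQ1 met at a stretch of 34.7 kb, chr6:791574-826317, at 488 to 602 kb. FOXF2 from the fragment chr6:1387402-1388835 scored 9.85 in UNC6852, 5.59 in UNC1999 and 5.17 in DMSO with chr6:791574-797920, and this was the only pair of the cluster called in all 3 profiles. From the FOXF2 fragment chr6:1396158-1397186 the same partner scored 5.32 in UNC6852, 0.541 in UNC1999 and 1.91 in DMSO. The FOXQ1 partner next to it, chr6:797921-804423, scored 4.89 in UNC6852, 5.49 in UNC1999 and 6.81 in DMSO. The stretch had 5 pairs, with 4 calls in UNC6852, 2 in UNC1999 and 2 in DMSO. Called shares over all pairs within chromosomes were 46.1%, 42.3% and 42.4% in these profiles. The stretch was delimited after the values were seen. Other captured fragments met it in 21 pairs, with 10 calls in UNC6852, 12 in UNC1999 and 9 in DMSO, and in UNC6852 10 of these pairs were higher than DMSO and 11 lower. A partner at chr6:907783-913067, at an end of LOC124901236, was shared by FOXQ1 and FOXF2. It scored 7.42 in UNC6852, 0.641 in UNC1999 and 1.81 in DMSO from FOXQ1, and 5.63, 4.01 and 0.283 in UNC6852, UNC1999 and DMSO from FOXF2.

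Among its 7 pairs, FOXQ1 had 5 calls in UNC6852, 2 in UNC1999 and 1 in DMSO. These are 71.4%, 28.6% and 14.3%, beside 46.1%, 42.3% and 42.4% over all pairs within chromosomes. All 3 pairs from the FOXQ1 promoter fragment were called in UNC6852 and in no other profile. Besides the pair toward FOXF2, these were a captured fragment at an end of DUSP22 (chr6:291935-293825), which encodes a dual-specificity phosphatase, 1019.0 kb away, and the fragment chr6:821014-826317. The DUSP22 fragment scored 7.28 in UNC6852, 0 in UNC1999 and 0 in DMSO, and the other scored 5.73 in UNC6852, 2.96 in UNC1999 and 0 in DMSO. From the neighbouring FOXQ1 fragment, an end of IRF4, an interferon regulatory factor gene of lymphoid and pigment cells (chr6:406258-411286), scored 5.95 in UNC6852, 0.118 in UNC1999 and 0.0124 in DMSO. The largest positive difference in UNC1999 was a pair of 35394.8 kb, with 0 in UNC6852, 7.62 in UNC1999 and 0 in DMSO.

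FOXF2 had 6 calls in UNC6852, 4 in UNC1999 and 4 in DMSO among its 12 pairs. These are 50%, 33.3% and 33.3%, beside 46.1%, 42.3% and 42.4% over all pairs within chromosomes. The FOXF2 partner chr6:669699-674972 scored 0 in UNC6852, 1.12 in UNC1999 and 7.70 in DMSO, the largest negative difference in UNC6852. The partner chr6:384186-389698 scored 3.06 in UNC6852, 6.27 in UNC1999 and 0 in DMSO, and chr6:810426-815844 scored 6.22 in UNC6852, 2.81 in UNC1999 and 0.215 in DMSO. The partner chr6:471710-476849 scored 5.98 in UNC6852, 0 in UNC1999 and 0 in DMSO. A partner at an end of LOC101927691 (chr6:863889-869525) scored 0.490 in UNC6852, 7.57 in UNC1999 and 0.461 in DMSO. The largest negative difference in UNC1999 was at chr6:696246-701502, with 0 in UNC6852, 0 in UNC1999 and 5.44 in DMSO. The largest positive difference in UNC1999 was a pair of 123680 kb, with 0 in UNC6852, 7.42 in UNC1999 and 0 in DMSO.

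FOXC1 had 5 pairs, all from 1 captured fragment (chr6:1607537-1608972), and each was called in 1 profile only. Over all pairs of 0.5 to 2 Mb, the distance class of these 5, 86.6% were called in 1 profile. The partner chr6:2449572-2455073 scored 3.22 in UNC6852, 8.75 in UNC1999 and 0 in DMSO. The partner chr6:2444680-2448385, which ends before it on the chromosome, scored 0 in UNC6852, 1.80 in UNC1999 and 6.68 in DMSO. The partner chr6:2355138-2361923 scored 5.69 in UNC6852, 0 in UNC1999 and 0.647 in DMSO. A fragment at the ends of GMDS, which encodes a GDP-mannose dehydratase, and of GMDS-DT (chr6:2239908-2244947) scored 0 in UNC6852, 6.15 in UNC1999 and 1.74 in DMSO. The largest negative difference in UNC1999 was at chr6:2677746-2683482, with 0 in UNC6852, 0.382 in UNC1999 and 5.15 in DMSO. Of the first 2 partners, 1 was higher and 1 lower than DMSO in both treated profiles.

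FOXA2 had the most pairs, and they gathered at 1 stretch below the gene. The stretch chr20:22332218-22391150, of 58.9 kb, lay 197 to 251 kb from the FOXA2 fragments, and none of its partner fragments was at an annotated gene end. It had 27 pairs from 4 FOXA2 fragments, with 10 calls in UNC6852, 18 in UNC1999 and 14 in DMSO. Over all pairs of 100 to 500 kb, 47.3% were called in UNC6852, 43.7% in UNC1999 and 44.0% in DMSO. Other captured fragments met the stretch in 106 pairs, with 63 calls in UNC6852, 62 in UNC1999 and 52 in DMSO. The 4 FOXA2 pairs called in all 3 profiles all lay there, and all came from the fragment chr20:22585145-22585863. That fragment scored 6.95 in UNC6852, 12.5 in UNC1999 and 8.88 in DMSO with chr20:22340872-22346454. It scored 9.47 in UNC6852, 7.80 in UNC1999 and 9.27 in DMSO with chr20:22385292-22391150. With chr20:22332218-22337232 it scored 8.41 in UNC6852, 8.67 in UNC1999 and 5.39 in DMSO, and with chr20:22374463-22380211 6.49, 5.61 and 6.39 in UNC6852, UNC1999 and DMSO. In this last pair all 3 profiles had close scores.

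A pair of adjoining captured fragments within the stretch differed in the order of their mean scores over the 4 FOXA2 fragments. The fragment chr20:22339269-22339821 was higher in UNC1999 than in DMSO from 4 of 4 and higher in UNC6852 from 3 of 4, with means over the 4 of 4.25 in UNC6852, 8.06 in UNC1999 and 3.60 in DMSO. The next fragment, chr20:22339822-22340871, was lower in UNC6852 than in DMSO from 4 of 4 and lower in UNC1999 from 3 of 4, with means of 6.59 in UNC6852, 4.27 in UNC1999 and 9.50 in DMSO. Singly, the second fragment scored 12.0, 6.49, 4.78 and 3.14 in UNC6852, 4.75, 1.25, 4.47 and 6.58 in UNC1999, and 13.5, 12.6, 6.48 and 5.41 in DMSO. The first scored 4.83, 6.71, 3.52 and 1.94 in UNC6852, 9.20, 8.54, 8.69 and 5.80 in UNC1999, and 4.81, 3.05, 2.22 and 4.33 in DMSO. This pattern was picked out after the values were seen, and the 4 FOXA2 fragments share the pooled library of each profile.

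**Figure D3:**
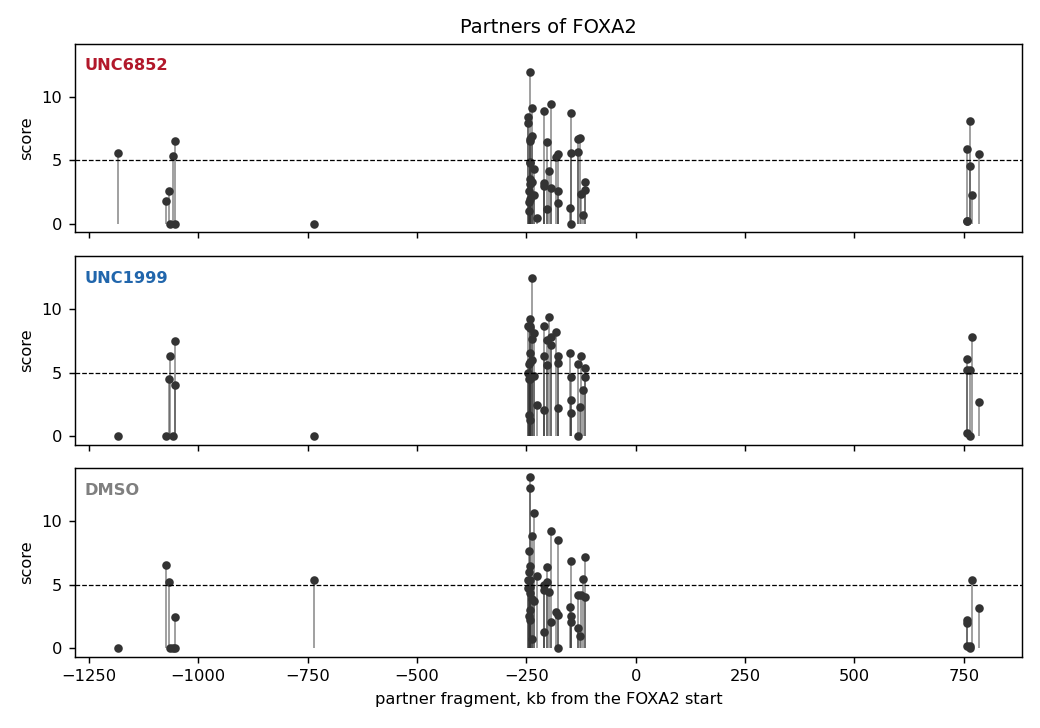
Scores of the FOXA2 pairs of at most 2 Mb, with UNC6852 above, UNC1999 in the middle and DMSO below. The distance of the partner, in kb, is from the FOXA2 end of lower coordinate, which need not be the transcription start. Each stem is 1 pair and the dashed line is the call score of 5. The tallest stem of each panel stands on the stretch that lies 197 to 251 kb from the FOXA2 fragments, at 12.0 in UNC6852, 12.5 in UNC1999 and 13.5 in DMSO.

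FOXA2 was also paired with other developmental genes about 1 Mb below it. A fragment at an end of NKX2-2, a homeobox gene of the ventral neural tube and pancreas (chr20:21505881-21510316), scored 1.82 in UNC6852, 0 in UNC1999 and 6.58 in DMSO, the largest negative difference in UNC1999. A captured fragment at the same gene (chr20:21523317-21523555), listed with NKX2-2 as the captured end, scored 5.36 in UNC6852, 0 in UNC1999 and 0 in DMSO. A captured fragment at NKX2-4 (chr20:21397875-21398447) scored 5.61 in UNC6852, 0 in UNC1999 and 0 in DMSO. Of these 3 contacts, 2 were called in UNC6852 only and 1 in DMSO only. BETALINC1, a long non-coding RNA gene beside NKX2-2 (chr20:21524605-21529970), scored 6.53 and 0 in UNC6852, 4.05 and 7.51 in UNC1999, and 0 and 2.43 in DMSO from a pair of FOXA2 fragments.

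The other FOXA2 partners called in at least 2 profiles and lying at a gene end were those of LOC105372562, LOC284788 and NXT1. The fragment at the LOC105372562 end (chr20:22446434-22451594) scored 6.67 in UNC6852, 5.71 in UNC1999 and 4.20 in DMSO. From another FOXA2 fragment it scored 5.64 in UNC6852, 0 in UNC1999 and 1.63 in DMSO. That at LOC284788 (chr20:22396235-22401018) scored 5.28 in UNC6852, 8.17 in UNC1999 and 2.84 in DMSO. That at NXT1, an mRNA export factor gene, and NXT1-AS1 (chr20:23347171-23353395) scored 2.26 in UNC6852, 7.78 in UNC1999 and 5.42 in DMSO. The largest positive difference from DMSO was a pair of 16347.4 kb to an end of FAM83D, with 11.6 in UNC6852, 0 in UNC1999 and 0 in DMSO. The largest negative difference in UNC6852 was at chr20:22430966-22436069, with 0 in UNC6852, 2.88 in UNC1999 and 6.85 in DMSO, although from 2 other FOXA2 fragments that partner scored 8.74 and 5.62 in UNC6852, 4.64 and 1.80 in UNC1999, and 2.08 and 2.57 in DMSO. In UNC1999 the largest positive difference was at a captured fragment (chr20:21517388-21517573), with 0 in UNC6852, 6.33 in UNC1999 and 0 in DMSO.

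FOXD3, a neural crest and pluripotency factor gene, and FOXB1, a gene of the developing diencephalon in the mouse, had no captured fragment within 1000 bp. The nearest captured fragment lay 1618 bp from a FOXD3 end and 1148 bp from a FOXB1 end. Within 5000 bp, FOXD3 had 39 pairs, with 12 calls in UNC6852, 21 in UNC1999 and 11 in DMSO, and FOXB1 had 86, with 37 calls in UNC6852, 43 in UNC1999 and 23 in DMSO. The shares called in UNC6852, UNC1999 and DMSO were 30.8%, 53.8% and 28.2% for FOXD3 and 43.0%, 50% and 26.7% for FOXB1, beside 46.1%, 42.3% and 42.4% over all pairs within chromosomes. A fragment at an end of ITGB3BP, a centromere protein gene (chr1:63440854-63445966), was met from 5 fragments beside FOXD3. It scored 6.97, 6.70, 6.41, 5.83 and 2.92 in UNC6852, 11.6, 5.67, 5.22, 2.40 and 6.06 in UNC1999, and 4.74, 5.44, 1.84, 2.00 and 0 in DMSO. Both treated profiles were higher than DMSO from each of the 5 fragments, although the ranges overlapped. Beside FOXB1, the partner chr15:60324752-60330464 was met from 7 fragments. Its lowest, median and highest scores were 1.86, 5.75 and 8.55 in UNC6852, 2.26, 5.89 and 8.41 in UNC1999, and 2.93, 4.92 and 7.47 in DMSO, so the 3 profiles overlapped. Both partners were picked out after the values were seen.

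Over all 161 pairs, 71 were called in UNC6852, 71 in UNC1999 and 58 in DMSO. These are 44.1%, 44.1% and 36.0% of the forkhead pairs in UNC6852, UNC1999 and DMSO, with exact (Clopper-Pearson) 95% intervals, which cover counting error only, of 36.3% to 52.1% in either treated profile and 28.6% to 44.0% in DMSO. Over all pairs within chromosomes, 46.1% were called in UNC6852, 42.3% in UNC1999 and 42.4% in DMSO, each inside the matching interval. The chromosome 6 cluster had 12 calls in UNC6852, 8 in UNC1999 and 7 in DMSO among 24 pairs. The chromosome 16 cluster had 35, 31 and 28 in UNC6852, UNC1999 and DMSO among 77 pairs, and FOXA2 had 24, 32 and 23 among 60. These orders depended on the setting. With neighbouring other ends merged, FOXA2 had 17, 17 and 16 calls and the chromosome 16 cluster 25, 25 and 19 in UNC6852, UNC1999 and DMSO. At a score of at least 7, the chromosome 6 cluster had 3, 4 and 1.

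**Figure D4:**
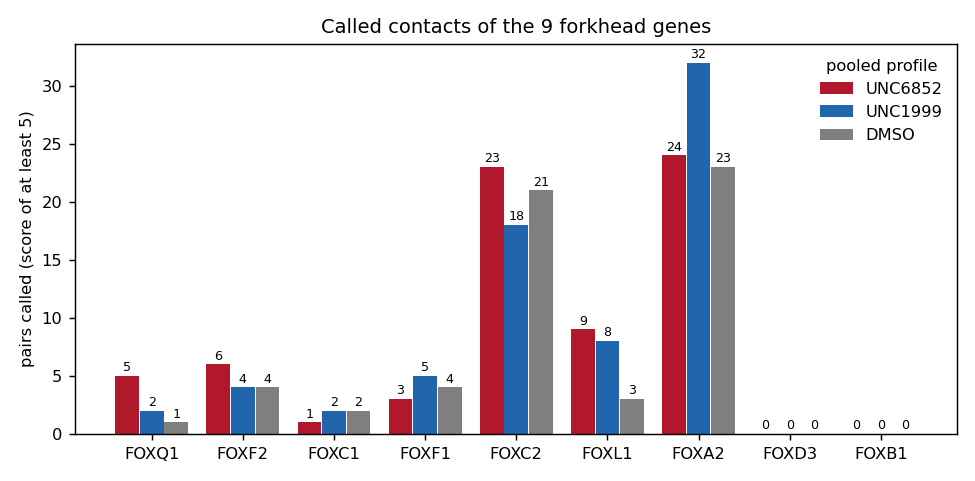
Number of pairs called (score of at least 5) for each of the 9 genes, with bars for UNC6852, UNC1999 and DMSO from left to right. FOXA2 has 24, 32 and 23 calls in UNC6852, UNC1999 and DMSO, FOXC2 has 23, 18 and 21, and FOXD3 and FOXB1 have 0.

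Most pairs were called in 1 profile. Of the 161, 131 were called in 1 profile, 21 in 2 and 9 in all 3, which makes 81.4% for 1 profile and 5.59% for all 3. Among all pairs within chromosomes, 77.5% were called in 1 profile and 8.33% in all 3. The pairs called in 1 profile were 51 for UNC6852, 44 for UNC1999 and 36 for DMSO. UNC6852 shared 12 of the 58 DMSO calls, which is 20.7% (exact 95% interval 11.2% to 33.4%), beside 31.4% of all DMSO calls. UNC1999 shared 19 of the 58, which is 32.8% (21.0% to 46.3%), beside 29.3%. Both background shares lie inside the intervals. The UNC6852 share was 33.7% with gene ends within 5000 bp, 33.3% with neighbouring other ends merged and 33.3% at a score threshold of 10. The UNC1999 share was 57.1% with neighbouring other ends merged and 0% at a score threshold of 10.

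The 2 treated profiles shared their calls about as rarely with each other as with DMSO. Each had 71 calls and they had 17 in common, 23.9% (14.6% to 35.5%) of either, beside 29.1% of all UNC6852 calls also called in UNC1999 and 31.7% of all UNC1999 calls also called in UNC6852. Sharing is also given by distance. Among forkhead DMSO calls of 100 to 500 kb, 11 of 37 were also called in UNC6852 and 15 in UNC1999, beside background shares of 34.3% and 32.0% at that distance. Among those of 0.5 to 2 Mb, 1 of 20 was also called in UNC6852 and 4 in UNC1999, beside 19.9% and 18.0%. The forkhead pairs were long, with a median of 481 kb, a shortest of 67.8 kb, and a median over all pairs within chromosomes of 314 kb.

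Scores were also compared without a threshold, as differences of asinh-transformed scores averaged over the pairs of a gene, positive where the treated profile is higher. FOXQ1 had the largest mean difference, 1.32 in UNC6852, with 5 of its 7 pairs higher and 1 lower than DMSO, and 0.43 in UNC1999, with 3 higher and 3 lower. FOXL1 had 0.37 in UNC6852 and 0.57 in UNC1999, and 10 and 11 of its 17 pairs were higher. FOXF2 had 0.31 in UNC6852 and 0.18 in UNC1999, and FOXC2 0.24 and 0.038. FOXF1 had 0.11 in UNC6852 and 0.17 in UNC1999, and FOXA2 0.031 and 0.21. FOXC1 had -0.51 in UNC6852 and 0.047 in UNC1999, over 5 pairs. For 6 of the 7 genes the difference was above 0 in UNC6852 and for 7 of 7 in UNC1999, beside 56.4% and 49.2% of the 4978 genes with at least 3 pairs. The median over the 7 genes was 0.24 in UNC6852 and 0.18 in UNC1999, beside 0.069 and -0.0075 over the 4978 genes. Both differences use the same DMSO column.

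These signs depended on scaling and on the pairs taken. Quantile normalization of the 3 profiles moved the median over the 4978 genes to -0.14 in UNC6852 and -0.23 in UNC1999, and gave values below 0 for FOXF1 (-0.097) and FOXA2 (-0.18) in UNC6852 and for FOXC1 (-0.21), FOXF2 (-0.11) and FOXC2 (-0.22) in UNC1999. Relative to the all-gene median, 5 of the 7 genes were higher in UNC6852 and 7 of 7 in UNC1999 with either scaling. With gene ends taken within 5000 bp, the UNC1999 differences of FOXQ1, FOXL1 and FOXC1 were -0.075, -0.051 and -0.24, and that of FOXL1 in UNC6852 was 0.00014. With captured pairs counted once, the UNC6852 difference of FOXF1 was -0.12.

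**Figure D5:**
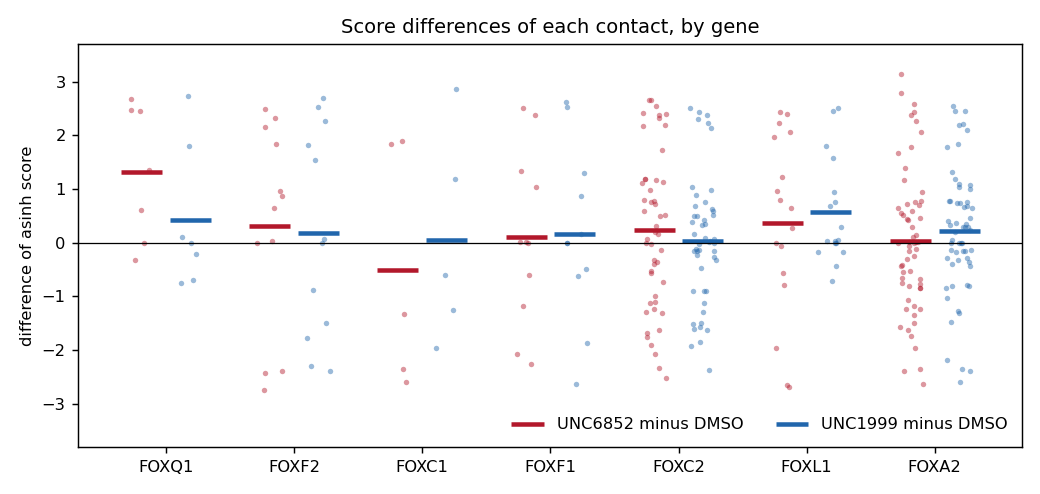
Difference of asinh score for each pair, by gene, with UNC6852 minus DMSO on the left and UNC1999 minus DMSO on the right of each gene. Points are pairs and bars their means. The points of every gene spread to both sides of 0 in both colours, and the highest bar is that of FOXQ1 in UNC6852, at 1.32.

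The same partner seen from neighbouring fragments shows how far a single score can be read. Of the 110 distinct partners, 33 were met from at least 2 forkhead fragments, in 83 pairs, and 12 were shared by 2 of the genes, 11 on chromosome 16 and 1 on chromosome 6. Relative to DMSO, the direction was mixed between the fragments for 15 of the 33 in UNC6852 and for 21 in UNC1999. No fragment was lower than DMSO for 12 partners in UNC6852 and 10 in UNC1999, and none was higher for 6 and 2. These counts include partners at which a fragment equalled DMSO.

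The other forkhead genes of the human genome, a list of 36, gave a comparison. Of these, 27 had pairs, 403 in all, with 250 calls in UNC6852, 167 in UNC1999 and 204 in DMSO. These are 62.0%, 41.4% and 50.6% of the pairs in UNC6852, UNC1999 and DMSO, beside 46.1%, 42.3% and 42.4% over all pairs within chromosomes. Of the 18 with at least 3 pairs, UNC6852 exceeded DMSO in 11 and was below it in 7, with a median of 0.17, and UNC1999 exceeded DMSO in 6 and was below it in 12, with a median of -0.071. FOXI3 had the most pairs, 82, with mean differences of 0.28 in UNC6852 and -0.15 in UNC1999. FOXA1, the paralogue of FOXA2, had 62, with 0.35 and 0.017, and FOXL2 had 57, with 0.44 and -0.11. In UNC6852, UNC1999 and DMSO, FOXI3 had 70, 41 and 55 calls, FOXA1 43, 33 and 40, and FOXL2 34, 17 and 18. These 3 genes thus weigh heavily in the shares of calls above. The 7 described genes and the other forkhead genes thus had medians above 0 in UNC6852, and in UNC1999 their medians had opposite signs, a difference that was not tested.

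Among 1560 genes with at least 10 pairs, those with mean asinh scores of the 3 profiles near to the chromosome 6 cluster included FAM114A1 and CLDN23, at Euclidean distances of 0.12 and 0.13. Nearest to the chromosome 16 cluster were PLEKHB1, JUN and MTARC2, at 0.055, 0.058 and 0.065, and nearest to FOXA2 were COPZ2, SLC26A2 and WIPI1, at 0.041, 0.053 and 0.067. The likeness is over 3 profiles only.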

How the data were processed

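The deposited scores are CHiCAGO scores, 1 column per condition pooled by the authors over 15 libraries, per the labels, on GRCh38 per the submitters' processing notes. The sources used here do not give the aligner, caller settings or read numbers. The values show that all scores were at least 0 and every listed pair reached 5 in at least 1 column. The deposited table also gives the distance between the fragments in bp, which was used as given. Genes came from RefSeq GRCh38.p14 (9 of 9 matched), without strand, so either annotated end counted. Pairs were called at a score of at least 5. Differences are means of asinh scores, treated minus DMSO. Shares carry exact (Clopper-Pearson) 95% binomial intervals for counting error only. No test was possible with 1 pooled column per condition. The genes named are all 9, with their 5 pairs of highest mean score, the pairs called in all 3 profiles, the largest rise and drop in each treated profile, and gene ends at partners called in at least 2 profiles. Members, lists and alternatives were chosen with earlier results of these data known. The calculation of the mean differences, not the differences themselves, was checked on simulated scores. Python 3.11.15, pandas 2.3.3, numpy 2.4.6 and scipy 1.17.1 were used. One gene that the rule for likeness to the chromosome 6 cluster names is not reported here.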

Additional observations from a re-analysis of the deposited data

Results flagged for a closer look

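Pairs between chromosomes lie outside the comparisons above. The forkhead fragments had 143 of them, with 45 calls in UNC6852, 50 in UNC1999 and 48 in DMSO. The ratio of UNC1999 to DMSO calls was 1.04, below the 1.21 over all pairs between chromosomes. For UNC6852 the ratio was 0.94, beside 1.15. None of the 143 was called in more than 1 profile. Over all 281836 pairs between chromosomes there were 96770 calls in UNC6852, 101879 in UNC1999 and 84499 in DMSO. Only 942 of them were called in at least 2 profiles, so such pairs were rare throughout and not only at the forkhead fragments.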

How the results depend on the processing

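No paired analysis was possible because each condition was 1 column pooled over its replicates. For the same reason no library was left out, read depth is unknown, and every value is a description of 3 pooled profiles. Genes of few pairs (FOXC1 with 5, FOXQ1 with 7) rest on 1 or 2 captured fragments. The cause of the changes listed here was not tested beyond what each setting removes or adds. Calls are given in the order UNC6852, UNC1999, DMSO.

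With a score of at least 7 there were 22, 25 and 16 calls in all, 3, 4 and 1 on chromosome 6, 10, 6 and 7 on chromosome 16, and 9, 15 and 8 at FOXA2. With a score of at least 10 there were 3, 2 and 3 in all, 0, 0 and 0 on chromosome 6, 1, 1 and 0 on chromosome 16, and 2, 1 and 3 at FOXA2, and 0% of DMSO calls were also called in UNC1999. With gene ends touched (within 0 bp) there were 16, 20 and 13 in all, 3, 0 and 0 on chromosome 6, 3, 3 and 3 on chromosome 16, and 10, 17 and 10 at FOXA2. Within 5000 bp there were 312, 322 and 258 in all, 33, 27 and 28 on chromosome 6, 168, 168 and 140 on chromosome 16, and 62, 63 and 56 at FOXA2, and 33.7% of DMSO calls were also called in UNC6852, against 20.7%. With only pairs whose other end lies within 1000 bp of the gene there were 2, 2 and 0 in all, with 1, 1 and 0 on chromosome 16 and 1, 1 and 0 at FOXA2. With neighbouring other ends merged, FOXA2 had 17, 17 and 16 calls, against 24, 32 and 23, chromosome 16 had 25, 25 and 19, and 57.1% of DMSO calls were also called in UNC1999, against 32.8%. Without the captured fragment with most pairs (25, of FOXC2), chromosome 16 had 20 calls in UNC1999 and 15 in DMSO, against 31 and 28. The share of FOXF1 partners at lower coordinates was 100% within 0 bp and with FOXF1 as the other end, the latter from 1 pair. The other shares on 1 side stayed within their intervals in the settings run, which for this measure were added after seeing the data.

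The mean asinh differences changed sign in 24 of 178 recalculations. In UNC6852, FOXF1 had -0.12 with captured pairs counted once and with the gene at the captured end only, -0.47 for pairs of at most 2 Mb, -0.60 within 0 bp and -0.097 after quantile normalization. FOXA2 had -0.0092 with the gene at the captured end only, -0.086 within 0 bp and -0.18 after quantile normalization. FOXL1 had -0.78 at the other end only, which is 1 pair, and FOXF2 -0.73 as a mean over captured fragments. FOXQ1 had -0.33 over pairs of mean score at least 5, a setting that left 1 FOXQ1 pair for both treated profiles. In UNC1999, FOXC1 had -0.24 within 5000 bp, -0.61 as a median, -0.28 with other ends merged and -0.21 after quantile normalization. FOXF2 had -0.053 for pairs of at most 2 Mb, -0.86 as a mean over captured fragments and -0.11 after quantile normalization. FOXC2 had -0.050 merged and -0.22 after quantile normalization, FOXQ1 -0.075 within 5000 bp and -0.21 over pairs of mean score at least 5, FOXF1 -0.090 for pairs of at most 2 Mb, and FOXL1 -0.051 within 5000 bp. FOXC1 in UNC6852, FOXC2 in UNC6852 and FOXA2 in UNC1999 kept their sign in every setting run.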

Other observations

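Other captured fragments met the stretch around LINC02181 (chr16:87046723-87088812) as well, in 44 pairs from 11 fragments, with 29 calls in UNC6852, 27 in UNC1999 and 33 in DMSO, and 17 called in all 3 profiles. Of the 3 fragments at FOXC2-AS1, a transcript beside FOXC2, chr16:86563806-86564767 had 7 of its 7 pairs there called in all 3 profiles, chr16:86564768-86565013 had 6 of 7, and chr16:86565120-86565445 had 3 of 8. The highest score on the stretch was 29.0 in UNC6852, 25.4 in UNC1999 and 21.1 in DMSO. The stretch below FOXA2 (chr20:22332218-22391150) was met by 28 other captured fragments in 106 pairs, with 63 calls in UNC6852, 62 in UNC1999 and 52 in DMSO, and 21 called in all 3 profiles. The fragment at LNCNEF, a long non-coding RNA gene beside FOXA2 (chr20:22586903-22588211), had 6 of its 11 pairs called in all 3 profiles, as did the fragment at the ends of LINC01747 and LOC124904963 (chr20:22683642-22684497). Both stretches were delimited after the values were seen.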
